A study of Mus musculus with 6 samples.

Results

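The respiratory chain genes described here are those whose symbols name subunits of the mitochondrial complexes I to V, measured in whole adrenal glands of BPH mice, a hypertensive strain ("Blood Pressure High"), and BPL mice, a hypotensive one ("Blood Pressure Low"). Each strain is represented by 3 arrays. Age, sex, treatment and the number of animals behind an array are not given in the sources used here. A probe set is a group of short oligonucleotides that queries 1 transcript. Probe sets were taken as members where the array annotation names exactly 1 gene with a symbol starting Nduf (a, b, c, s or v), Uqcr, Cox4 to Cox8 or Atp5, or with the symbol Cyc1 or Sdha to Sdhd, without Cox7a1 and Cox8b. This gave 97 of 12488 probe sets, or 70 of the 8252 genes that have a probe set of their own. They stand for 29 genes of complex I, 4 of complex II, 8 of complex III, 13 of complex IV and 14 of complex V. The symbol rule also took in Ndufaf1 and Ndufaf4, which encode complex I assembly factors and not subunits, and these are given apart. A further 10 probe sets that name several genes, at least 1 of them with a matching symbol, were not used.

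The respiratory chain passes electrons from NADH (complex I) and succinate (complex II) through complex III and cytochrome c to oxygen at complex IV, and the proton gradient it builds drives the ATP synthase, complex V. Nuclear genes encode all of complex II and most subunits of the other complexes. In the adrenal cortex, mitochondria also hold the first and last steps of steroid synthesis, and brown fat, which can lie close to the gland, is very rich in respiratory complexes.

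Of the 97 member probe sets, 75 passed the filter on low values. The 22 that did not include 13 whose gene had another, tested probe set. The other 9 were the only ones of 7 genes, Ndufs4, Ndufc2, Ndufa12, Ndufa1, Cox5a, Cox8a and Atp5j2, whose levels are not described further. This left 61 subunit genes and the 2 assembly factors. Median intensity per array lay between 1003.5 and 1114.7. The adrenal label was checked on 9 tested cortex genes, with a mean log2 intensity between 15.68 and 15.91 on all arrays, and on 8 tested chromaffin cell genes, with a mean between 13.33 and 14.65. Each run of a fluidics station (the instrument that washes and stains arrays) held arrays of 1 strain only. Strain and station run therefore cannot be told apart. BPH 3 shared station 1 with the BPL arrays in another run, and BPH 1 and BPH 2 were on station 2.

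In all 5 complexes the subunit genes had lower intensities in BPH than in BPL, but few passed the test singly. Of 61 tested subunit genes 60 had a negative log2 difference (BPH minus BPL), against 45.2% of all 5555 tested genes. Their median difference was -0.48, with the middle 50% between -0.63 and -0.32, while all tested genes had a median of 0.04 and a middle 50% between -0.19 and 0.24. Only Sdhd of complex II and Ndufa7 of complex I passed the threshold in limma, 2 of 61 subunit genes against 0.9% of all tested genes called lower. In either direction 2.43% of all tested genes were called. Counted by probe set, 2 of 75 members were called, both lower, against 2.52% of all tested probe sets called and 0.96% called lower, and BPH lay wholly below BPL for 39 of 75, against 11.6%. At an unadjusted p under 0.05, 38 subunit genes were lower and 0 higher, against 8.1% of all tested genes lower. All 3 BPH arrays lay below all 3 BPL arrays for 35 subunit genes, against 11.1% of all tested genes. The reverse order was found for 0 of them, against 15.5%. In whole-gland RNA, fewer cells of a type and less RNA per cell cannot be told apart.

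**Figure D1:**
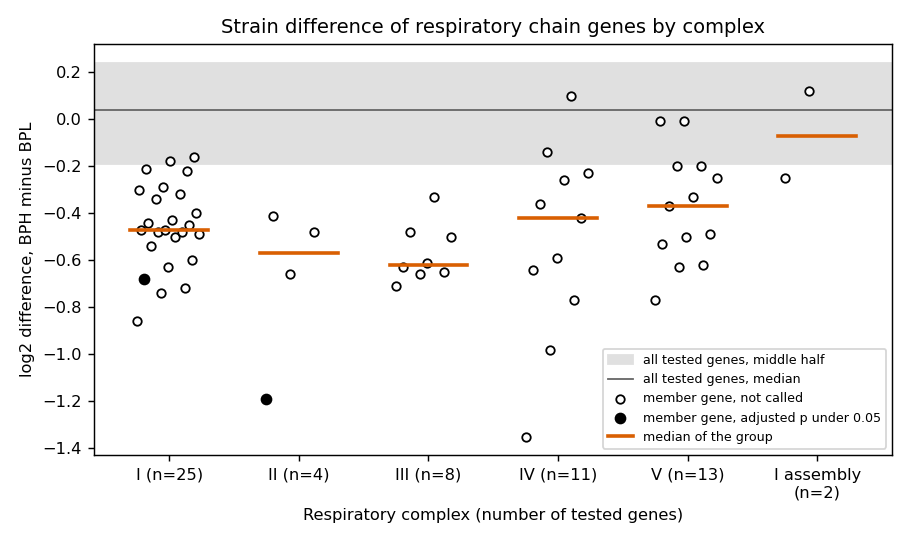
Log2 difference between strains (BPH minus BPL, vertical axis) of each tested member gene, grouped by complex, with the median of each group as an orange bar; filled points passed an adjusted p of 0.05, and the grey band is the middle 50% of all tested genes. The group medians lie between -0.37 and -0.62 in the 5 complexes and at -0.07 for the 2 assembly factors.

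By complex, the medians were -0.47 for complex I, -0.57 for complex II, -0.62 for complex III, -0.42 for complex IV and -0.37 for complex V. The BPH arrays lay wholly below the BPL arrays for 17 of 25 genes of complex I and 3 of 4 of complex II. The same held for 5 of 8 of complex III, 6 of 11 of complex IV and 4 of 13 of complex V. Over all tested genes the share was 11.1%. Differences between complexes were not tested. The ranges overlapped, from -0.86 to -0.16 in complex I, -1.19 to -0.41 in II, -0.71 to -0.33 in III, -1.35 to 0.10 in IV and -0.77 to -0.01 in V.

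**Figure D2:**
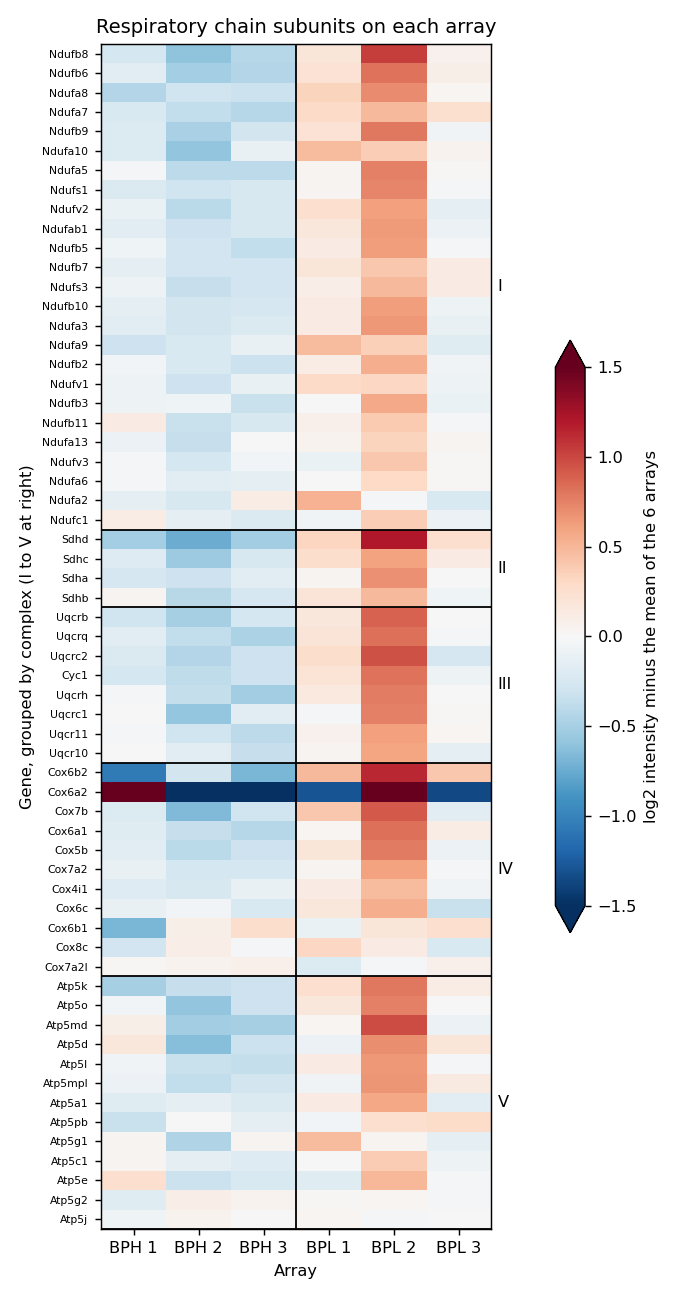
Each row is a tested subunit gene, grouped by complex, and each column an array; the colour is the log2 intensity minus the mean of the 6 arrays, on a scale that ends at 1.5 in both directions. Most rows are below their mean on the 3 BPH arrays and highest on BPL 2, while Cox6a2 is high on BPH 1 and BPL 2 only.

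Promoters of subunit genes are shown because the members differed in a common direction. RefSeq windows (GRCm38.p6) from 250 bases before to 50 after the start were at hand for 47 of the 61 tested subunit genes, 52 windows in all. On both strands they were searched for letters linked to 4 factors known to act on respiratory genes. The factors were NRF1, the ETS family that includes GABP (CCGGAAG), the estrogen-related receptors (AAGGTCA) and YY1 (AANATGGCG). NRF1 was likewise searched by a letter pattern, which is not spelled out here. Matches to the NRF1 pattern are among the capitals in the Ndufa8 and Cox6a1 stretches below. NRF1 letters were found in 23.1% of the subunit windows, in 10.4% of windows of all tested genes and in 4.6% of all 32851 windows. The ETS letters were found in 26.9%, 17.2% and 8.86%, the receptor letters in 9.62%, 3.54% and 4.72%, and the YY1 letters in 9.62%, 5.01% and 2.38%. Such matches describe letters only, and no motif was tested against the strain difference.

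The stretches run 5′ to 3′ up to the start, shortened where a neighbouring gene is annotated, with matches in capitals. They come from the called Sdhd, from Ndufa8, which had the next smallest p of complex I after Ndufa7, from Cox6a1, which held 3 matches, and from Cox7a2l, the gene with a positive difference. Sdhd lies at chr9:50603850-50603900 (minus strand), Ndufa8 at chr2:36049339-36049472 (minus), Cox6a1 at chr5:115348959-115349208 (minus) and Cox7a2l at chr17:83514334-83514583 (minus).
Sdhd: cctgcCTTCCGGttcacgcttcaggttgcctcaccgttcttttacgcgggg
Ndufa8: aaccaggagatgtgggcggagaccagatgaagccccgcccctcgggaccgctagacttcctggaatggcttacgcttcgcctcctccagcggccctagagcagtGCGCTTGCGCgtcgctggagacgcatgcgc
Cox6a1: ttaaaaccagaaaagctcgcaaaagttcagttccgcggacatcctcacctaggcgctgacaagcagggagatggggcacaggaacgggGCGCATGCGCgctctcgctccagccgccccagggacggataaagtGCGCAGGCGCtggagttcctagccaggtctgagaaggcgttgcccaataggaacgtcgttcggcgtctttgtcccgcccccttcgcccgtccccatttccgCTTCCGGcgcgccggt
Cox7a2l: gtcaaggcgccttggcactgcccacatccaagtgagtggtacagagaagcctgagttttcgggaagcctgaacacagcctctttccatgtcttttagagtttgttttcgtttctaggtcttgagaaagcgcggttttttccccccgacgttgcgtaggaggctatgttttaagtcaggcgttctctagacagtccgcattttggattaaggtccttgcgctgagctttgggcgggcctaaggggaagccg
The Sdhd stretch holds an ETS match that starts 46 bases before the start. The full Sdhd window, which the shares above count, also held NRF1 and receptor letters, outside the shortened stretch. Ndufa8 holds an NRF1 match 30 bases before it, and Cox6a1 holds NRF1 matches at 162 and 117 bases and an ETS match at 16. None of the 4 motifs is in the Cox7a2l stretch.

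Complex II, succinate dehydrogenase, also serves the citric acid cycle, and its 4 genes were all tested. Sdhd encodes a membrane anchor that binds ubiquinone together with Sdhc. Its promoter stretch with an ETS match is printed above. Sdhd had intensities of 12613, 10750.0 and 12538 on BPH 1, 2 and 3 and of 22542, 41383 and 21419.9 on BPL 1, 2 and 3. Every BPL array stood above every BPH array, and BPL 2 stood far above the other BPL arrays. The log2 difference was -1.19 (SE 0.23, adjusted p = 0.037, 3 arrays per strain), and it was -0.88 without BPL 2 (adjusted p = 0.0095). Over the 16 settings that give a p the adjusted p ran from 0.0095 to 0.541 and was under the threshold in 8. Sdhc, the partner anchor, had 16230.5, 12667 and 15654 in BPH and 22176, 28138 and 20243 in BPL. Its groups were also apart, by -0.66 (SE 0.16), but the adjusted p of 0.0702 missed the threshold. Sdha, the flavoprotein that oxidises succinate, was at 4684, 4472 and 4972 in BPH and 5731, 8955 and 5559 in BPL (-0.48, SE 0.19, adjusted p = 0.204). Sdhb, the iron-sulfur subunit, overlapped between strains, with BPH 1 at 33422 above BPL 3 at 31161 (-0.41, SE 0.17, adjusted p = 0.238). The 2 anchors thus had larger differences than the catalytic pair, with medians of -0.92 and -0.45, a contrast between genes that was not tested. Without BPL 2 the median of the complex was -0.40.

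Complex I is the largest member group, with 25 tested genes that all had a negative difference. Ndufa7, an accessory subunit of the arm that reaches into the matrix, had intensities of 31314, 28189 and 27256 in BPH and 44651, 51343 and 43258 in BPL. The groups were well apart, and BPL 2 was the highest of them by a small margin. Its log2 difference was -0.68 (SE 0.12, adjusted p = 0.0286), and -0.61 without BPL 2 (adjusted p = 0.0323). Over the same settings the adjusted p ran from 0.0179 to 0.449 and was under the threshold in 7 of 16. Ndufa8, a membrane-arm subunit with paired cysteines, had 6157, 6785 and 6691 in BPH and 10523, 13723 and 8579 in BPL (-0.72, SE 0.17, adjusted p = 0.068). Ndufb6 and Ndufb7, both of the membrane arm, had differences of -0.74 (SE 0.20, adjusted p = 0.0867) and -0.47 (SE 0.12, adjusted p = 0.0868). The BPH arrays ran from 16659 to 21302 for Ndufb6 and from 24884 to 27698 for Ndufb7, against 25146 to 41809.7 and 32900.2 to 40042 on the BPL arrays. Neither gene's groups overlapped. The largest difference of the complex, chosen for mention after its values were seen, was that of Ndufb8 (-0.86, SE 0.24, adjusted p = 0.0947). Ndufb8 encodes a membrane-arm subunit often used as a marker of assembled complex I.

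Of the core subunits of complex I, Ndufv1 and Ndufs1 are described. Ndufv1, which holds the flavin that accepts electrons from NADH, had 28290.0, 24032 and 27693 in BPH and 36380.5, 36968 and 28352 in BPL. BPL 3 lay next to the highest BPH array, and the difference was -0.34 (SE 0.14, adjusted p = 0.236). Ndufs1, the largest iron-sulfur subunit, had 10601, 10006 and 10428 in BPH and 12699, 20462 and 12032 in BPL, with BPL 2 carrying much of the difference of -0.50 (SE 0.19, adjusted p = 0.204), which was -0.26 without that array. Sorted by position in the complex, 10 genes of the matrix arm had a median of -0.45 and 15 of the membrane arm a median of -0.47. Without BPL 2 the median of complex I moved from -0.47 to -0.28. The 2 assembly factors did not show the common pattern in full. Ndufaf1 had 2619.7, 2594 and 2374 in BPH and 2862, 3327 and 2832 in BPL, not overlapping but with a difference of -0.25 (SE 0.14, adjusted p = 0.362). Ndufaf4 had a positive difference of 0.12 (SE 0.20, adjusted p = 0.786) with overlapping groups, which was -0.03 without BPL 3.

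Complex III, which passes electrons from ubiquinol to cytochrome c, had 8 tested genes, all with a negative difference and all highest on BPL 2. None was called in limma, and 6 had an unadjusted p under 0.05. Uqcrb, a small subunit next to the quinone site, had 22089.8, 19199 and 22679.9 in BPH and 30538, 50165 and 27307 in BPL (-0.71, SE 0.21, adjusted p = 0.117). Cyc1, cytochrome c1, had 57265, 52702 and 55474 in BPH and 79381, 120923 and 64932 in BPL (-0.63, SE 0.21, adjusted p = 0.152). In both genes the BPH arrays were close together and the BPL arrays wide apart, with no overlap. A second Cyc1 probe set had the same sign with overlapping groups (-0.25). Uqcrq and Uqcrh, small subunits of the same complex, had differences of -0.66 (adjusted p = 0.144) and -0.61 (adjusted p = 0.167), again without overlap. Uqcrc1, a core protein, overlapped between strains (-0.50, adjusted p = 0.275). Without BPL 2 the median of the complex was -0.35.

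Complex IV, cytochrome c oxidase, reduces oxygen and has several tissue-specific isoforms among its nuclear subunits. Of its 11 tested genes 10 had a negative difference, none was called in limma, and 6 had an unadjusted p under 0.05. The largest difference was that of Cox6b2, an isoform known from testis, with 431, 743 and 559 in BPH and 1254, 1975 and 1189 in BPL. The strains did not overlap, but the level was low and the difference of -1.35 (SE 0.31) did not pass (adjusted p = 0.0665). Its probe set carries the suffix _f_at, which marks probes shared by related sequences, and the other 2 Cox6b2 probe sets were too dim to test. The general isoform Cox6b1 had overlapping groups (-0.23, SE 0.25, adjusted p = 0.659), and the sign turned to 0.09 without the 2 arrays highest in muscle genes. Such suffixes (_f_at or _s_at) mark 14 of the 61 probe sets that stand for subunit genes, so related transcripts may add to their signal.

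The isoforms Cox6a1 and Cox6a2 had different patterns over the arrays. Cox6a1, the general form, had 68608, 61000.2 and 57496 in BPH and 79063, 137387 and 83714 in BPL, with no overlap (-0.64, SE 0.21, adjusted p = 0.148). Cox6a2, the form of heart and skeletal muscle, had 3869.7, 260.4 and 272 in BPH and 372, 15753 and 357 in BPL. It was thus high on BPH 1 and BPL 2 and low on the other 4 arrays of both strains, and its difference of -0.98 had an SE of 1.51 (adjusted p = 0.764) and turned to 0.83 without BPL 2. The same 2 arrays were highest in skeletal muscle genes, whose mean log2 intensity over 15 tested markers was 13.09 on BPH 1 and 13.19 on BPL 2, and between 9.58 and 10.92 on the others.

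Cox7b, a small subunit, had 15784, 11457 and 14729 in BPH and 24032, 34322 and 16168 in BPL (-0.77, SE 0.25, adjusted p = 0.144), so that BPL 3 came close to the BPH arrays without overlap. Cox5b, a zinc-binding subunit, had a difference of -0.59 (SE 0.21, adjusted p = 0.167), Cox7a2 of -0.42 (adjusted p = 0.234) and Cox4i1 of -0.36 (adjusted p = 0.248), all without overlap. A dimmer Cox4i1 probe set had the same sign with overlapping groups (-0.26, SE 0.25). Cox8c, another isoform known from testis, overlapped between strains (-0.14, adjusted p = 0.695). A second Cox8c probe set, with the suffix _f_at, was below the floor on all 6 arrays and was not tested. The 1 subunit gene with a positive difference was Cox7a2l, a Cox7a relative that joins complexes III and IV into supercomplexes, with 9284, 9456 and 9639 in BPH and 7929, 8971 and 9666 in BPL. Its arrays overlapped, and the difference of 0.10 (SE 0.12, adjusted p = 0.678) stayed between 0.02 and 0.17 over the settings. The median of complex IV moved from -0.42 to -0.21 without BPL 2.

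Complex V, the ATP synthase, had 13 tested genes, all with a negative difference. None was called in limma, and 4 had an unadjusted p under 0.05. Atp5k, subunit e of the membrane part, which takes part in pairing of the enzyme, had 2388, 2655 and 2722 in BPH and 4019, 5830.5 and 3654 in BPL. The strains were apart, by -0.77 (SE 0.19, adjusted p = 0.0706). Atp5o, which joins the catalytic head to the stalk, had 16416, 11159.6 and 13562 in BPH and 18962, 28438 and 16958 in BPL (-0.63, SE 0.21, adjusted p = 0.155), with BPH 1 just below BPL 3. Atp5mpl and Atp5l, small membrane subunits, had differences of -0.49 (adjusted p = 0.194) and -0.50 (adjusted p = 0.198). Atp5l is the 1 gene whose tested probe sets differed in sign, since a dimmer _f_at probe set gave 0.13 (SE 0.20). For the other 9 of 10 genes with several tested probe sets the sign was the same.

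At the other end of complex V lay subunits with nearly equal levels in both strains. Atp5j, a stalk subunit named here after its values were seen, had 13864, 15012 and 14427 in BPH and 14738, 14230.1 and 14588 in BPL, with a difference of -0.01 (SE 0.10). Atp5g2, 1 of the genes for the proton-carrying ring, had 5062, 6161 and 5974 in BPH and 5813, 5866 and 5619 in BPL at its brightest probe set (-0.01, SE 0.12), although a dimmer probe set gave -0.65 (SE 0.31, adjusted p = 0.297). Atp5g1, another ring gene, overlapped between strains at its brightest probe set (-0.25, adjusted p = 0.616). Its dimmer probe set had no overlap (-0.33, SE 0.28, adjusted p = 0.553). The 7 genes of the head and stalks had a median of -0.33 and the 6 of the membrane part a median of -0.49.

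Among the BPL arrays, BPL 2 stood apart. It was the highest of the 6 arrays for 51 of 61 subunit genes, against 20.7% of all tested genes. The median ratio of BPL 2 to the mean of BPL 1 and BPL 3 was 1.51 over subunit genes and 0.96 over all tested genes. The mean log2 intensity of the 61 genes was 13.78, 13.56 and 13.63 on BPH 1, 2 and 3 and 14.01, 14.53 and 13.87 on BPL 1, 2 and 3. All 3 BPL arrays thus stood above all BPH arrays, BPL 3 by the smallest margin. Without BPL 2 the median difference was -0.28, and 59 of 61 genes had a negative sign, against 48.1% of all tested genes. Without BPH 1 and BPL 2 together the median was -0.38, and 56 of 61 were negative, against 46.8%. For BPH 3 alone against the BPL arrays, all on station 1, the median was -0.49 and 57 of 61 were negative. All tested genes had a median of 0.05 in that setting, which rests on 1 BPH array.

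**Figure D3:**
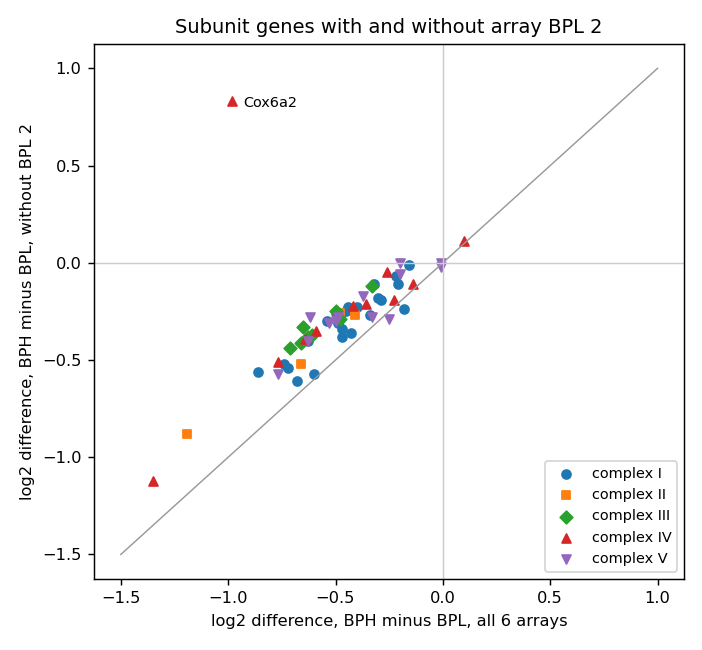
Log2 difference of each tested subunit gene with all 6 arrays (horizontal axis) against that without BPL 2 (vertical axis), coloured by complex; the grey diagonal marks equal values. Most points lie above the diagonal and below 0, so the difference is smaller but still negative, and Cox6a2 moves from -0.98 to 0.83.

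Markers of brown fat differed in the same direction as the subunits. Elovl3, Ppargc1a and Zic1 were on the array but did not pass the filter on low values. All 8 tested markers had a negative difference, against 45.2% of all tested genes. For 6 of them BPH lay wholly below BPL, against 11.1%, and 2 were called lower, against 0.9%. The 8 tested markers had a median of -1.38. Their mean log2 intensity was 12.01, 11.29 and 11.81 on BPH 1, 2 and 3 and 13.11, 13.88 and 12.47 on BPL 1, 2 and 3, which is the same order of arrays as for the mean of the subunit genes. Their summed intensity ran from 40880 to 69640 in BPH and from 106400 to 315200 in BPL. Ucp1, the defining uncoupling protein, was well above the floor on every array, with 13301, 5336 and 8870.3 in BPH and 51083, 98187 and 33362 in BPL. Cox7a1 and Cox8b, complex IV isoforms of muscle and brown fat that were left out of the members, are among the 8 markers. They differed by -1.64 (adjusted p = 0.0752) and -1.47 (adjusted p = 0.0564). The part of brown fat in the difference of the subunits was not tested.

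Other cell type markers followed the subunits less closely. The summed intensity of 11 general fat markers ran from 248000 to 287300 in BPH and from 269400 to 521100 in BPL. Of these markers 9 had a negative difference, and the median was -0.30, which moved to -0.02 without BPL 2. Lipe, hormone-sensitive lipase, was called lower (-1.25, SE 0.25, adjusted p = 0.0376), while Retn (0.58, adjusted p = 0.112) and Car3 (0.42, adjusted p = 0.183) had all BPH arrays above all BPL arrays. Skeletal muscle markers summed to between 22970 and 206300 in BPH and between 19990 and 210600 in BPL. Cortex markers summed to between 678400 and 792800 in BPH and between 683500 and 747600 in BPL, with a median of 0.03. Chromaffin cell markers had positive differences, 8 of 8 with 1 called higher, a median of 0.69 (0.44 without BPL 2), and sums from 252500 to 311400 in BPH and from 137700 to 275700 in BPL. Their part in the result was not tested.

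**Figure D4:**
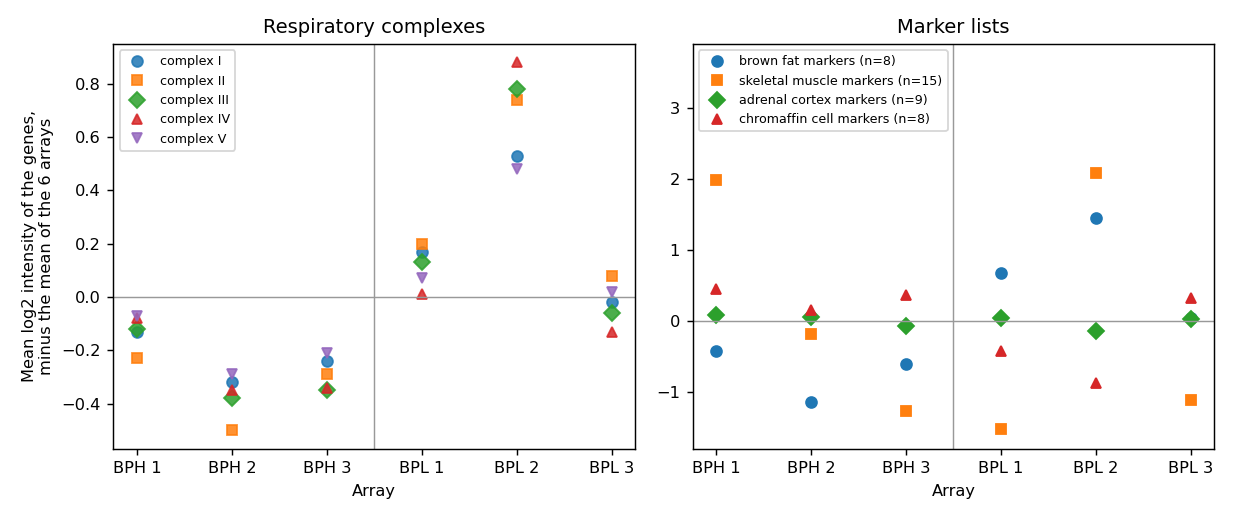
Mean log2 intensity of the genes of each complex (left) and of 4 marker lists (right) on each array, minus the mean of the 6 arrays. The complexes and the brown fat markers are lowest on BPH 2 and highest on BPL 2, muscle markers are high on BPH 1 and BPL 2, and cortex markers lie within 0.14 of their mean.

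Genes that work beside the complexes were taken from lists of carriers, assembly factors and regulators. Of 11 tested genes for electron and metabolite carriers, 9 had a negative difference and 8 were highest on BPL 2. Their median was -0.49, and -0.28 without BPL 2. None was called in limma, and 5 lower had an unadjusted p under 0.05. Etfdh, which feeds electrons from fat oxidation to ubiquinone, differed by -1.07 (SE 0.26, adjusted p = 0.0721), and Etfb, part of its electron donor, by -0.85 (SE 0.19, adjusted p = 0.0564). Cycs, cytochrome c itself, had 3179, 3599 and 4152 in BPH and 5404, 8274 and 2936 in BPL, so BPL 3 was the lowest array of all (-0.49, adjusted p = 0.438). Of 11 tested assembly factors and inhibitors outside the symbol rule, 5 had a negative and 6 a positive difference, with a median of 0.01. None was called in limma, and 2 lower and 1 higher had an unadjusted p under 0.05. Surf1, an assembly factor of complex IV, differed by 0.00 (SE 0.12). Cox18, which helps insert a complex IV subunit into the inner membrane, had the smallest p of the list and all BPH arrays above all BPL arrays (0.41, SE 0.12, adjusted p = 0.11). Lrpprc, which stabilises mitochondrial messenger RNA, had all BPH arrays below all BPL arrays (-0.45, adjusted p = 0.136). Uqcc1 had the largest difference of the list, with overlapping groups (-0.70, SE 0.29, adjusted p = 0.241).

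Regulators of respiratory genes had a median of 0.00 over 9 tested genes. None was called in limma, and 1 lower and 1 higher had an unadjusted p under 0.05. Of the 16 listed regulators 12 were found on the array, and Nrf1 was not among them. Ppargc1a, Tfam and Polg were on the array but did not pass the filter on low values. The nuclear receptor gene Ppara, abundant in brown fat, had 3397, 3004 and 3956 in BPH and 6135, 9492 and 4077 in BPL, again highest on BPL 2 (-0.85, SE 0.27, adjusted p = 0.136). Esrra, an orphan receptor that acts on respiratory genes, differed by -0.56 (adjusted p = 0.26), and Gabpa, an ETS factor that binds many of their promoters, by 0.35 (adjusted p = 0.358). Yy1, a factor with sites in many respiratory promoters, had the opposite sign to Ppara, with overlapping groups (0.49, SE 0.17, adjusted p = 0.164).

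Both called genes share their start region with a gene on the opposite strand. Sdhd and Timm8b, which encodes a small chaperone of mitochondrial import, start 52 bases apart. Timm8b had 4816, 4849 and 4919 in BPH and 4323, 6538 and 4938.6 in BPL, with overlapping groups and a difference of -0.09 (SE 0.16, adjusted p = 0.787) beside -1.19 for Sdhd. Ndufa7 and Rps28, a ribosomal protein gene, start 10 bases apart. Rps28 had 89696, 88696 and 79064 in BPH and 107715, 125171 and 116670.4 in BPL, so its strains did not overlap either, by -0.44 (SE 0.13, adjusted p = 0.116) beside -0.68 for Ndufa7. Of the 47 genes with a window, 13 had such a partner within 250 bases, and 5 partners were tested. Their smallest adjusted p was 0.116, and 2 had a negative difference. Gabpa, the partner of Atp5j at 148 bases, Wdr77 (0.18), the partner of Atp5pb, and Fam126b (0.09), the partner of Ndufb3, had positive ones.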

How the data were processed

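Adrenal RNA of the mouse strains BPH and BPL was measured on 6 Affymetrix MG_U74Av2 arrays, 3 per strain. Deposited were linear intensities, scaled by the authors such that each array's mean after trimming 2% at each end lies between 2501.3 and 2501.5. Software for image analysis: not given in the sources used here. Values under the 20th percentile of the table (201.3) were set to that floor and taken to log2. Control probe sets, 66 in number, and probe sets with a mean log2 level under the 40th percentile of the table (668.1) were left out, which left 7293. Differences were fitted over all of these with limma 3.58.1 (lmFit, eBayes with an intensity trend) under R 4.3.3, two-sided, with Benjamini-Hochberg adjustment over the 7293 probe sets and a threshold of 0.05. The fit was tested on simulated data. Gene names came from the platform annotation and, by gene number, from a RefSeq table of GRCm38.p6, which paired 10839 of 10855 probe sets that name 1 gene. A gene is shown by its brightest tested probe set, giving 5555 genes. Described by rule are called members, the 4 genes of each complex with the smallest p, isoform sets, core subunits, and members whose sign or probe sets disagree. Members and lists were chosen with earlier results of these data known. The labels do not say whether the arrays of a strain come from separate animals, so p-values measure the spread between these arrays, and their number limits the precision. Alternatives covered scaling, low values, the filter, the variance model, the replicate number, the fluidics station and single arrays.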

Additional observations from a re-analysis of the deposited data

How the results depend on the processing

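The direction over subunit genes was kept in all 17 settings tried, of which 16 give a p, with 56 to 64 negative as the number tested changed with the filter (a count chosen after seeing the data). Without BPL 2 the medians of complexes I to V moved from -0.47, -0.57, -0.62, -0.42 and -0.37 to -0.28, -0.40, -0.35, -0.21 and -0.28, by more than the SD of the BPH arrays in complexes I to IV. Without BPL 3 they were -0.61, -0.68, -0.80, -0.53 and -0.54. Counts of calls were less stable. Against 184 probe sets and 2 members called, limma called 52 and 0 with no filter, 83 and 0 without the intensity trend, 18 and 0 under a station block and 7 and 0 within station 1, where 18, 28, 15 and 8 members had an unadjusted p under 0.05. With no filter the 18 were out of 97 members, beside 1690 of all 12422 probe sets. The 28 without the trend and the 15 under the station block were out of 75 members. Beside them stood 1335 and 650 of all 7293 tested probe sets. The counts within station 1 rest on 1 BPH array, so no comparison is drawn from them. Leaving out 1 array gave 42 to 361 probe sets and 0 to 10 members called. The members called were 2 without BPL 2, beside 153 of all 7293 tested probe sets, and 10 without BPL 3, beside 361. They were 0 without BPH 1, BPH 2, BPH 3 or BPL 1, beside 83, 42, 49 and 94 probe sets. In the settings with 0, the members with an unadjusted p under 0.05 were 34, 16, 23 and 34 of 75. Over all 7293 tested probe sets the counts were 1138, 949, 1119 and 1281. Same-numbered arrays of the strains did not deviate together (r of -0.219, -0.084 and 0.012), and no array correlated best with its own number. With the replicate block 124 probe sets and 1 member were called, since Ndufa7 missed the threshold (adjusted p = 0.0853, in a range from 0.0179 to 0.449). Some differences near 0 changed sign. Atp5g2 was 0.05 under the station block, 0.05 within station 1 and 0.09 without the muscle-rich arrays BPH 1 and BPL 2, and -0.07 to 0.07 when 1 array was left out. Cox6b1 was 0.15, 0.15 and 0.09 there and -0.41 to 0.06 on leaving out 1 array, and Cox8c was 0.00 without the muscle-rich arrays. On leaving out 1 array Cox6a2 ran from -2.27 to 0.83 and Ndufaf4 from -0.03 to 0.21. Some of these alternatives have fewer arrays or more probe sets tested, and the causes of the changes were not tested.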

Other observations

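Other mitochondrial and proton-pump genes gave values beside those of the respiratory chain. The mitochondrial ribosome translates the subunits encoded in mitochondrial DNA. Of its 58 tested genes 36 had a negative difference, against 45.2% of all tested genes. Their median was -0.08, and -0.03 without BPL 2. BPH lay wholly below BPL for 13 of them, against 11.1%, and wholly above for 2, against 15.5%. On BPL 2, 28 were highest, against 20.7% of all tested genes, and 2 were called lower, against 0.9%. Mrpl3 had 2874, 3855 and 3474 on BPH 1, 2 and 3 and 6809.8, 6984 and 5089 on BPL 1, 2 and 3, a log2 difference of -0.88 (SE 0.17, adjusted p = 0.0337) that was -0.80 without BPL 2. Mrpl12 had 3141, 3118 and 2710.0 in BPH and 4641, 6794 and 4849 in BPL, a difference of -0.84 (SE 0.17, adjusted p = 0.0388). Both genes were described because they were the called ones of the list. Genes of protein import and inner membrane structure had a median of -0.08 over 25 tested (0.01 without BPL 2), with none called in limma and 0 lower and 1 higher at an unadjusted p under 0.05.

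The vacuolar proton pump, which acidifies lysosomes and secretory granules and is not part of mitochondria, had a median of 0.06 over 15 tested genes (0.00 without BPL 2). Atp6v1d, a rotor subunit, was called lower, with 4725, 5922 and 5022 in BPH and 7533, 8112 and 7968 in BPL (-0.60, SE 0.13, adjusted p = 0.0467).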
